A study of Mus musculus with 8 samples.

Results

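Potassium channel genes were measured in the olfactory bulb, where they were taken as the rows of the expression table whose symbol starts with Kcn, leaving out the antisense RNA Kcnq1ot1. This gave 91 genes in 21 subfamilies among 19583 rows, and 75 of them passed the filter of a mean of at least 0.5 FPKM over all libraries. FPKM values count fragments per unit of transcript length and sequencing depth, so levels of different genes can be set side by side. The bulbs were taken from mice of postnatal day 30 on a mixed background of C57BL/6J, 129S6 and CD1. The double mutants carried hGFAP-Cre with homozygous floxed alleles (Flox/Flox) of both Sp8 and Sp9, a pair of zinc finger transcription factors. The hGFAP promoter drives Cre in radial glia and astrocytes, so that their descendants also carry the deletions. The controls were wild-type littermates, and each group had 4 libraries. The labels name Cre and the floxed alleles for the mutants only, so what Cre or the floxed alleles do by themselves cannot be told apart from losing both factors.

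Potassium channels let potassium leave or enter the cell and so set the resting potential, the shape of the spike and the rate of firing. Most are built from 4 pore-forming subunits, often of mixed kinds, with auxiliary subunits that change gating or transport to the membrane. Voltage-gated subunits (Kcna to Kcnd, Kcnh and Kcnq) open on depolarization, the silent Kv subunits (Kcnf, Kcng, Kcns, Kcnv) act only together with others, inward rectifiers (Kcnj) and tandem-pore channels (Kcnk) hold the resting potential, and a further class (Kcnma, Kcnn, Kcnt, Kcnu) opens on internal calcium or sodium or is related to such channels. In the bulb, granule cells and periglomerular cells are GABAergic interneurons, mitral and tufted cells are the glutamatergic output neurons, and astrocytes clear potassium through inward rectifiers.

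The scaled columns of the table gave an estimated depth of 11888711 to 19040802 fragments per library. Sp8 measured 6.15 to 8.06 FPKM in the double mutants and 29.3 to 31.6 FPKM in the wild type, and Sp9 measured 6.24 to 7.27 and 23.1 to 25.3 FPKM, lower in every library labelled as mutant. The labels give each library a letter, A (replicates 1 and 2) or B (3 and 4) in the double mutants and C (1 and 2) or D (3 and 4) in the wild type, without saying whether a letter is an animal, so p-values reflect only how far these libraries spread, part of which may be technical. Libraries of a letter were closer to each other than to the rest of their group, with a median chi-square per gene of 1.18 to 1.44 times the sampling noise against 1.56 to 2.35 times between letters. Xist, the RNA of the inactive X chromosome of females, was at 76.8 and 80.0 FPKM in letter A, 0.0364 and 0.0538 FPKM in letter B and 104.1 to 115.4 FPKM in the wild type. Letters A and B thus did not come from the same animal, and the sexes were not balanced between the groups. Fits without letter B hold only libraries with Xist, and the part of sex in the changes was not tested. In bulk tissue, fewer cells of a type and less RNA per cell cannot be told apart.

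Kcn genes fell more often than they rose. Among the 75 that were tested, 40 fell, 22 rose and 13 failed to pass in a linear model on log2(FPKM + 0.5) fitted over 14349 genes with limma (call at an adjusted p below 0.05). The share called was 82.7% of the members, beside a background of 65.3% of all tested genes. The members that fell made up 53.3% against 36.5% of all genes, and those that rose made up 29.3% against 28.8%. The difference was larger among strong falls. A fall of at least 2-fold was seen for 17 of the 75 members (22.7%), against 2.09% of all tested genes, and a rise of at least 2-fold for 1 member (1.33%), against 1.69%. The latter count was 3 under upper quartile or trimmed mean scaling, in the scaled columns and without letter B or D. It was also 3 without replicate 3 of either group. With a pseudocount of 0.1 in place of 0.5, which shrinks changes of low genes less, it was 4, and 17 members again fell at least 2-fold. The median log2 fold change was -0.24 in the members and -0.04 over all genes. The 4 double mutant values did not overlap the 4 wild-type values for 60 of the members (80.0%), against 59.1% of all genes. No test of the list was made, and these shares are descriptions. Upper quartile scaling moved the split of all genes from 4127 higher and 5237 lower to 5123 and 3820, and that of the members to 25 higher and 38 lower. Without the libraries of letter B, 19 members were higher and 39 lower, and without letter A, 21 and 40. The summed level of all 91 genes was 927 ± 27 FPKM in the double mutants and 1233 ± 15 FPKM in the wild type (SD, n = 4), which is 75.2% of wild type.

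**Figure D1:**
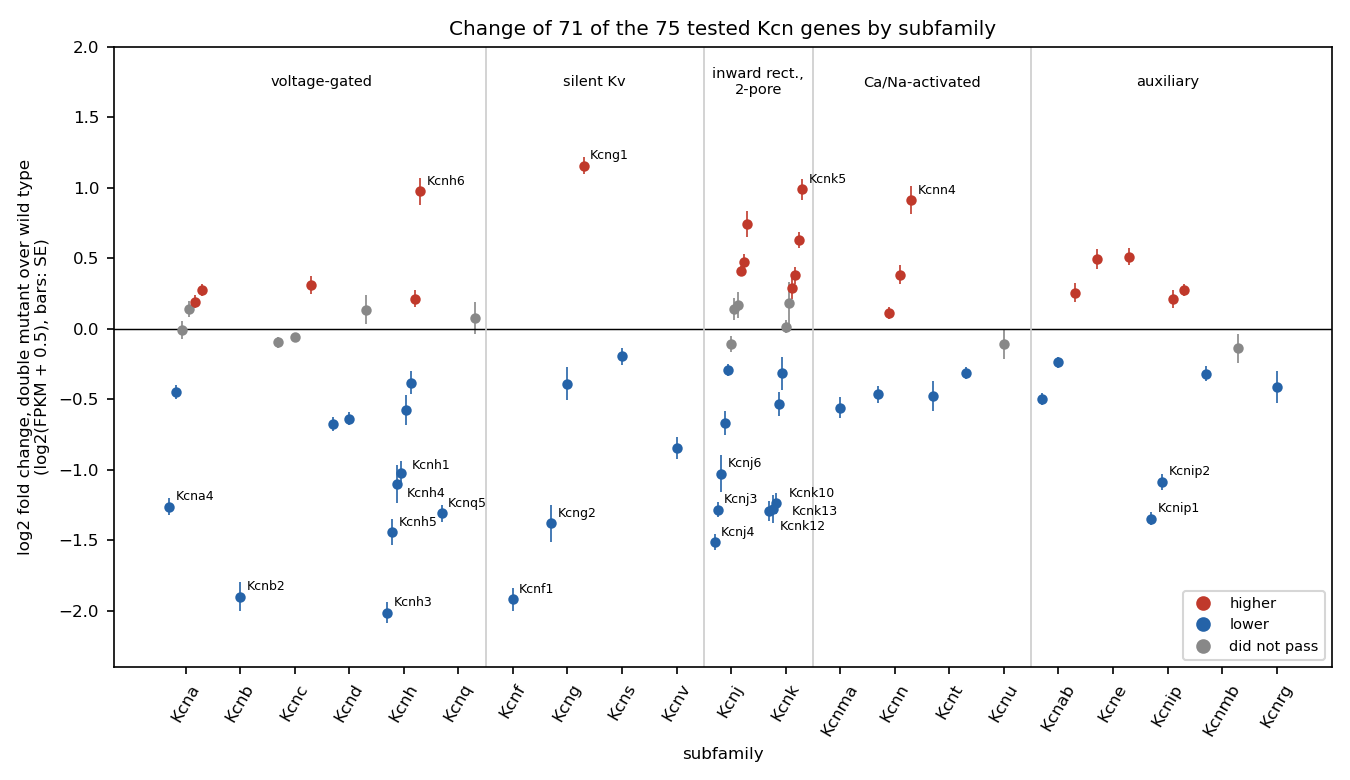
Change of 71 of the 75 tested Kcn genes by subfamily, as log2 fold change on the log2(FPKM + 0.5) scale with its standard error; colours give the limma call. The strongest falls lie in Kcnh, Kcnf, Kcnb and Kcnj (Kcnh3 at -2.01, Kcnf1 at -1.92, Kcnb2 at -1.90 and Kcnj4 at -1.51), and 1 gene, Kcng1 at 1.16, lies above 1.

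With only double mutants and wild type, all genes that fell did so in the same libraries, so a shared direction does not link them. Markers of GABAergic interneurons were counted from a list. All 8 markers of that list fell, among them Gad1, Gad2, Slc32a1, Meis2, Dlx1, Dlx5 and Synpr, and their summed level was 514 to 590 FPKM in the double mutants and 1222 to 1259 FPKM in the wild type. Of 5 neuroblast markers 4 fell, with sums of 57.6 to 63.9 and 117 to 127 FPKM. Markers of other cells were higher: all 7 of mitral and tufted cells (817 to 887 against 547 to 584 FPKM), all 7 of astrocytes (1248 to 1288 against 839 to 935 FPKM), all 6 of endothelial and mural cells (329 to 368 against 185 to 192 FPKM), all 5 of meninges and fibroblasts (135 to 155 against 67.2 to 80.4 FPKM), all 5 of ensheathing cells (3159 to 3377 against 1617 to 1756 FPKM), 5 of 6 of microglia (148 to 164 against 108 to 121 FPKM) and 4 of 5 of olfactory sensory neurons (755 to 885 against 372 to 539 FPKM). Of the 6 oligodendrocyte markers 2 rose and 1 fell, with sums of 1576 to 1993 and 1509 to 1628 FPKM, and all 3 precursor markers rose, with sums of 72.9 to 78.4 and 63.5 to 68.9 FPKM. Of the 3 tested choroid plexus markers 1 rose, and the sum over all 4 was 4.11 to 5.002 against 1.87 to 2.81 FPKM. The marker that rose was Kl, with means of 2.84 and 1.09 FPKM, and much of that sum is Kl. Ttr and Clic6 did not pass, and the untested Folr1 was at 0.141 and 0.216 FPKM. No marker of any list was at 0 in every library. The part of these cell types in the changes of Kcn genes was not tested.

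Promoter windows of a few members with strong changes are printed first, because Sp family factors are known to bind GC boxes and the members moved in both directions. RefSeq windows on GRCm38.p6, which run from 250 bases before to 50 bases after a transcript start, were found for 67 of the 91 members. The stretches below are the 100 bases upstream of the start, 5′ to 3′ on the gene's strand, and capitals mark every GGGCGG or its reverse complement CCGCCC. Kcnf1 and Kcnj4 fell, and Kcnh6, Kcnk5 and Kcnj13 rose. They were chosen after their values were seen, among members with a single window.
Kcnf1 (chr12:17176889-17176988, minus strand): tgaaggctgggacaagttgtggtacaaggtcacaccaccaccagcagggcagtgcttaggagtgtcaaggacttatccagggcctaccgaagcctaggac
Kcnj4 (chr15:79505242-79505341, minus strand): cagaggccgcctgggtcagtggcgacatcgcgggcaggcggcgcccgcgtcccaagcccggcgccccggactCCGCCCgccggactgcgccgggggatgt
Kcnh6 (chr11:106008048-106008147, plus strand): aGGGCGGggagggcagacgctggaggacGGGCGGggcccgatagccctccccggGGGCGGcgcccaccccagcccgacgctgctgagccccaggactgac
Kcnk5 (chr14:20181783-20181882, minus strand): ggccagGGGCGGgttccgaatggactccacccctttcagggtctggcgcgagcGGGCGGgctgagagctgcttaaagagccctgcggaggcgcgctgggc
Kcnj13 (chr1:87394730-87394829, minus strand): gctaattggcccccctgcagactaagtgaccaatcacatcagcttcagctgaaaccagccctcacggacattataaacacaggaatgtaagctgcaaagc
Genes with and without a box thus stand on both sides. Over the whole windows, a box on either strand was present in 18 of the 35 windows of members that fell (51.4%) and in 15 of the 29 windows of members that rose (51.7%). It was present in 4 of 12 windows of members that did not pass (33.3%). Counted by genes, at least 1 window held a box for 18 of the 27 that fell (66.7%), 14 of the 18 that rose (77.8%) and 68.4% of the 10615 tested genes with a window. Among all 32851 windows of that length 35.7% held a box, and among the 13638 windows of tested genes 61.1%. A match is a stretch of letters and not a shown binding site.

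The Kcnh genes encode ether-a-go-go type channels. Of 8 tested members 6 fell and 2 rose. The share called was thus 100%, against 65.3% of all tested genes, of which 36.5% fell and 28.8% rose. Kcnh3, a brain-enriched channel of the Elk branch (ENSMUSG00000037579.7, chromosome 15, 99224861 to 99242817, plus strand), stood at 13.9, 14.5, 10.97 and 12.2 FPKM in the mutant replicates 1 to 4, in that order, against 51.7, 54.5, 55.0 and 51.6 FPKM in the wild type. Every double mutant library lay far below the lowest wild-type one. The log2 fold change was -2.01 ± 0.07 (SE, n = 4 per group, limma adjusted p = 7.87e-09). Which member fell furthest depended on the scale: Kcnh3 was at 24.2% of wild type in mean FPKM, Kcnb2 at 22.2% and Kcng2 at 19.8%, and without letter B Kcnf1 (-2.09) lay below Kcnh3 (-1.87). The exons of Kcnh3 share 1 base with exons of Mcrs1 on the opposite strand. The other Elk genes fell as well, Kcnh4 by 1.10 and Kcnh8 by 0.57 on the log2 scale, from wild-type means of 2.74 and 0.762 FPKM. The value of Kcnh8 was -0.95 with a pseudocount of 0.1 and -0.39 with 1, and its mean was 45.5% of wild type. The Eag genes Kcnh1 and Kcnh5, which open on small depolarizations, fell by 1.03 and 1.44. Kcnh5 stood at 2.55, 2.16, 2.88 and 2.71 FPKM in the mutant libraries, against 7.88, 8.69, 8.28 and 6.62 FPKM in wild-type ones, again without overlap. The Erg genes split. Kcnh6 (chromosome 11, 106008124 to 106034549, plus strand) rose by 0.97 ± 0.09 (limma adjusted p = 6.94e-06), from 5.08, 4.84, 6.44 and 4.76 FPKM in the wild type to 12.4, 10.4, 9.95 and 10.54 FPKM. Kcnh2, the Erg channel known for its role in cardiac repolarization, rose by 0.21 from a mean of 25.9 FPKM, and this did not pass without letter B or without letter C. Kcnh7 fell by 0.38. Its exons overlap those of Gca by 696 bases on the opposite strand, and the strand setting of the counting is not given in the sources used here.

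**Figure D2:**
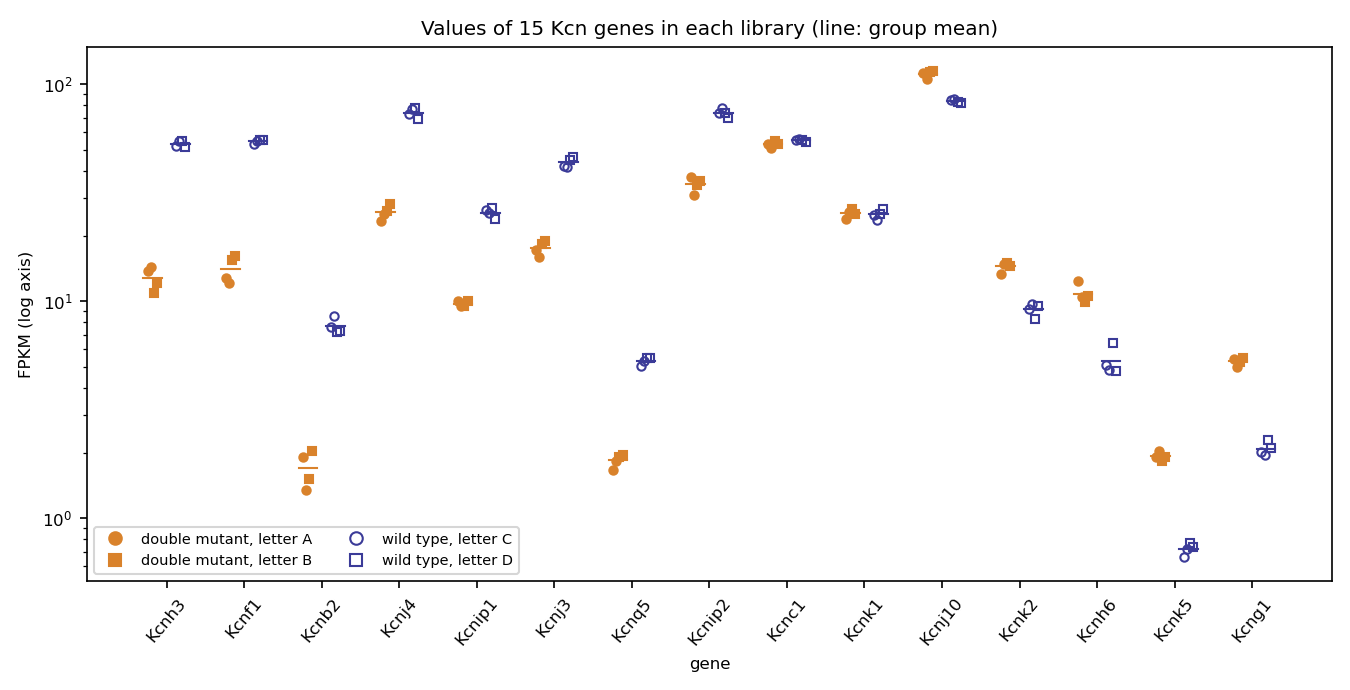
FPKM on a log axis of 15 Kcn genes in the 4 double mutant (filled) and 4 wild-type (open) libraries, with circles for letters A and C, squares for letters B and D and lines at the group means. From Kcnh3 to Kcnip2 all double mutant values lie below the wild-type ones, Kcnc1 and Kcnk1 overlap, and from Kcnj10 to Kcng1 all double mutant values lie above.

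Kcnb2 and its silent partners are described together. Kcnb2 encodes a Kv2 delayed rectifier, and Kcnf1, Kcng, Kcns and Kcnv genes encode subunits known to form channels with Kv2. Kcnb2 (chromosome 1, 15287254 to 15723750, plus strand) stood at 1.91, 1.35, 1.52 and 2.03 FPKM in the mutant libraries, against 7.61, 8.57, 7.24 and 7.30 FPKM in wild-type ones, a fall of 1.90 ± 0.10 (limma adjusted p = 9.76e-08). The groups did not overlap, and the mean was 22.2% of wild type. The silent subunit gene Kcnf1 (chromosome 12, 17172100 to 17176888, minus strand) was among the most abundant Kcn genes of the wild-type bulb, at 52.9, 54.9, 55.5 and 55.0 FPKM, and measured 12.8, 12.2, 15.54 and 16.1 FPKM in the double mutants. Its mean was 25.9% of wild type (-1.92 ± 0.08, limma adjusted p = 1.61e-08). The letter B libraries lay above those of letter A, and all 4 lay far below the wild type. Kcnv1 fell by 0.84 and Kcng4 by 0.39, the latter with overlapping groups and no call without letter D. Kcng2, at a low level, went from 1.65 ± 0.29 to 0.326 ± 0.111 FPKM (SD, n = 4), a fall of 1.38 on a scale that understates changes of low genes. Kcns2 fell by 0.20, which did not pass under upper quartile scaling, on letter means or without letter A or C.

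Kcng1 went the other way from the other tested silent subunits. It encodes a partner of Kv2 (chromosome 2, 168260117 to 168281736, minus strand) and stood at 5.40, 4.99, 5.25 and 5.48 FPKM in the mutant libraries, against 2.01, 1.95, 2.31 and 2.097 FPKM in wild-type ones. Its mean was 252% of wild type (1.16 ± 0.06, limma adjusted p = 1.03e-07). No other tested member rose as far on this scale, but with a pseudocount of 0.1 Kcng1 and Kcnk5 both stood at 1.30. The summed level of the silent group was 29.2 ± 2.4 FPKM against 71.3 ± 1.6 FPKM (SD, n = 4), or 41.0% of wild type. Kcnf1 had means of 14.1 and 54.6 FPKM within these sums. Amigo1, an adhesion protein that is an auxiliary subunit of Kv2, is no Kcn gene. It fell from 41.3, 42.2, 41.4 and 43.0 FPKM to 20.3, 20.3, 20.9 and 20.6 FPKM (-1.02 ± 0.03, limma adjusted p = 2.87e-09).

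The A-type potassium current of Kv4 channels is carried by Kcnd subunits in complex with KChIP proteins (Kcnip genes) and with Dpp6 or Dpp10. Kcnd2 stood at 18.6, 16.8, 19.4 and 18.9 FPKM in the mutant libraries, against 28.3, 28.3, 29.6 and 29.5 FPKM in wild-type ones, and Kcnd3 fell to a like extent, by 0.68 against 0.64 on the log2 scale. Kcnd1 was low and did not pass (3.29 ± 0.48 and 2.94 ± 0.33 FPKM, SD, n = 4). Among the 4 KChIP genes 2 fell and 2 rose, where 65.3% of all tested genes were called. Kcnip2 stood at 37.5, 30.9, 34.3 and 35.8 FPKM in the mutant libraries, against 73.9, 78.0, 73.3 and 70.2 FPKM in wild-type ones (-1.08 ± 0.06, limma adjusted p = 7.3e-08). Kcnip1 (chromosome 11, 33629339 to 33993152, minus strand) measured 9.98, 9.46, 9.502 and 10.1 FPKM against 26.3, 25.4, 26.9 and 23.9 FPKM (-1.35 ± 0.04, limma adjusted p = 4.46e-09). Both were without overlap. Kcnip3, also known as the calcium-binding repressor DREAM, rose by 0.28, from 16.7 ± 0.6 to 20.4 ± 0.95 FPKM (SD, n = 4), and Kcnip4 rose by 0.21, which did not pass on letter means or without letter B or C. Exons of Kcnip4 overlap those of 5730480H06Rik by 168 bases on the opposite strand. Kcnip1 and Kcnip2 made up less of the KChIP sum, in which Kcnip3 went from 13.1 ± 0.4% to 26.0 ± 2.1% and Kcnip4 from 9.14 ± 0.68% to 17.4 ± 1.3%. The partner genes Dpp6 and Dpp10 fell by 0.66 and 0.68.

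Kv1 genes encode low-threshold channels of axons and terminals, and their members moved in both directions. Of 6 tested, 2 fell, 2 rose and 2 did not pass. The share called was 66.7%, close to the 65.3% of all tested genes. Kcna4, which gives Kv1 channels fast inactivation, stood at 4.61, 4.76, 5.52 and 5.41 FPKM in the mutant libraries, against 12.8, 12.8, 12.9 and 12.8 FPKM in wild-type ones (-1.26 ± 0.06, limma adjusted p = 3.53e-08). Kcna1 fell by 0.45. Kcna2, the most abundant Kv1 gene here, rose by 0.28 ± 0.04 (limma adjusted p = 0.000222), with 31.2, 30.0, 34.3 and 33.0 FPKM against 26.3, 26.7, 25.9 and 26.6 FPKM, and Kcna3 rose by 0.19. The summed Kv1 level was 63.9 ± 2.3 and 67.1 ± 0.9 FPKM (SD, n = 4), while Kcna2 went from 39.4 ± 0.1% to 50.3 ± 1.5% of the sum over Kcna1 to Kcna6 and Kcna4 from 19.1 ± 0.3% to 7.94 ± 0.48%. Kcna5 (4.102 and 4.13 FPKM) and Kcna6 (5.33 and 4.78 FPKM) did not pass, although Kcna6 passed under upper quartile and trimmed mean scaling, in the scaled columns, without variance trend and without double mutant replicate 1. The cytoplasmic beta subunits that bind Kv1 fell for Kcnab2 (by 0.24, or 0.15 under upper quartile scaling) and Kcnab3 (by 0.50), which come after Kcnj10 by the mean over all libraries (71.6 ± 1.3 and 70.7 ± 2.2 FPKM in the wild type, SD, n = 4), and rose for Kcnab1 (by 0.25), which did not pass under quantile normalization or without letter B.

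Kv3 genes encode the fast delayed rectifiers of rapidly firing neurons. Kcnc1 stood at 52.9, 50.9, 55.0 and 52.8 FPKM in the mutant libraries, against 55.3, 56.1, 55.1 and 53.9 FPKM in wild-type ones, with a difference of -0.06 ± 0.03 (SE) that did not pass (limma adjusted p = 0.114) and turned to 0.03 under upper quartile scaling. Without letter B it passed as lower (-0.09, limma adjusted p = 0.049). Kcnc2 was at 10.51 ± 0.2 and 11.3 ± 0.4 FPKM (SD, n = 4) and stood at the edge (limma adjusted p = 0.0509), passing as lower with either other filter, with no variance trend and without letter C or wild-type replicate 2. Kcnc4 rose by 0.31, from 6.41 ± 0.55 to 8.07 ± 0.32 FPKM.

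The Kcnq genes carry the M-current, which muscarinic receptors shut and which restrains repeated firing. Kcnq5 measured 1.67, 1.84, 1.92 and 1.95 FPKM in the mutant libraries, against 5.04, 5.29, 5.47 and 5.45 FPKM in wild-type ones (-1.31 ± 0.06, limma adjusted p = 4.1e-08). The groups stood well apart. Kcnq3, a subunit of the neuronal M-channel, measured 3.80, 3.98, 5.54 and 4.68 FPKM against 4.72, 4.37, 3.51 and 4.25 FPKM and did not pass (0.08 ± 0.11, limma adjusted p = 0.565), with the sign turned to -0.10 without letter B.

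**Figure D3:**
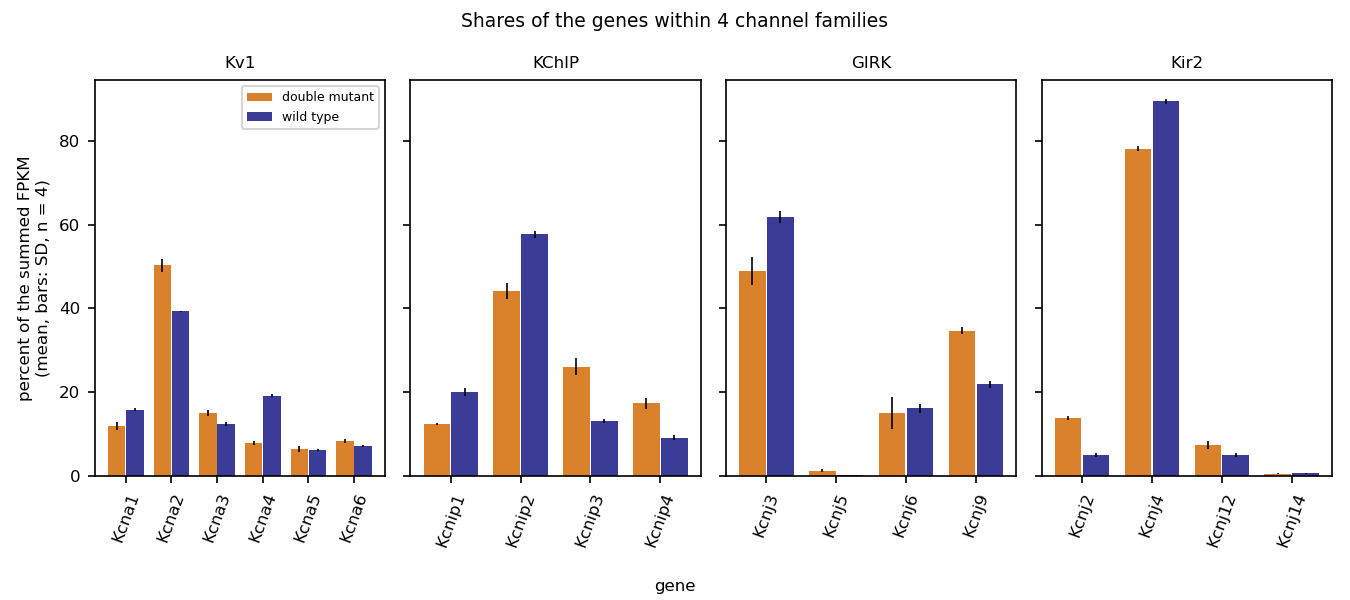
Percent that each gene made up of the summed FPKM of its family, as the mean of 4 libraries with SD, in double mutants and wild type. Kcna4, Kcnip2, Kcnj3 and Kcnj4 hold smaller shares in the double mutants, and Kcna2, Kcnip3, Kcnj9 and Kcnj2 hold larger ones; the untested Kcna7 and Kcna10 are left out of Kv1.

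Inward rectifiers split by subunit. Of the 11 tested, 5 fell and 3 rose, while 3 did not pass. The share called was 72.7%, against 65.3% of all tested genes, of which 36.5% fell and 28.8% rose. For so few genes this is near the background. Kcnj4, a strong rectifier of the Kir2 branch known from forebrain neurons (chromosome 15, 79483714 to 79505241, minus strand), stood at 23.4, 25.2, 26.1 and 27.9 FPKM in the mutant libraries, against 72.9, 76.6, 77.5 and 69.2 FPKM in wild-type ones. Its mean was 34.7% of wild type (-1.51 ± 0.05, limma adjusted p = 7.17e-09). Kcnj12 of the same branch fell by 0.67, while Kcnj2 (4.55 ± 0.28 and 4.1 ± 0.47 FPKM, SD, n = 4) did not pass, but was called higher under upper quartile scaling, in the scaled columns, without letter D and without wild-type replicate 3. The G protein-gated channels, which open after activation of GABA-B and other receptors, include Kcnj3, Kcnj6 and Kcnj9. Kcnj3 measured 17.1, 16.1, 18.4 and 19.0 FPKM against 42.0, 41.5, 45.0 and 46.0 FPKM (-1.28 ± 0.06, limma adjusted p = 2.18e-08). Kcnj6 measured 6.51 and 6.62 FPKM in letter A and 4.28 and 4.25 FPKM in letter B, against 11.7, 11.6, 11.2 and 10.9 FPKM in the wild type. It fell by 1.03 ± 0.13, and letter A stood apart from letter B more than the wild-type libraries differed among themselves. Kcnj9 fell by 0.29. The ATP-sensitive pore genes Kcnj11 (7.65 ± 0.55 and 8.28 ± 0.28 FPKM) and Kcnj8 (2.34 ± 0.27 and 2.02 ± 0.23 FPKM) did not pass, nor did their sulfonylurea receptor partners Abcc8 and Abcc9 (0.02 and 0.19 on the log2 scale). Kcnj8 was called higher under upper quartile scaling and without letter B, and Kcnj11 lower without letter A and without double mutant replicate 2.

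The inward rectifiers of astrocytes rose. Kcnj10 encodes Kir4.1, the main potassium channel of astrocytes (chromosome 1, 172341210 to 172374085, plus strand), and had the highest level of all members. It stood at 113, 106, 114 and 115 FPKM in the mutant libraries, against 84.4, 85.8, 83.1 and 82.0 FPKM in wild-type ones, a rise of 0.41 ± 0.03 (limma adjusted p = 1.42e-06). Its partner Kcnj16 (Kir5.1) rose by 0.48 ± 0.05, with 13.8, 13.4, 12.6 and 11.9 FPKM against 8.90, 9.02, 9.14 and 9.57 FPKM. The 7 astrocyte markers had a median change of 0.51 in the same libraries, and whether the rise of these channels goes beyond that of the astrocyte markers was not tested. Kcnj13, known from choroid plexus and other epithelia, rose by 0.74 from 2.14 ± 0.32 FPKM. Its exons overlap those of Gigyf2 by 623 bases on the opposite strand.

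Tandem-pore genes encode leak channels, and of 11 tested 5 fell, 4 rose and 2 did not pass. The share called was 81.8%, against 65.3% of all tested genes, of which 36.5% fell and 28.8% rose. The median change of the subfamily was 0.02. Kcnk12 stood at 7.48, 6.25, 7.89 and 7.98 FPKM in the mutant libraries, against 18.1, 18.5, 20.01 and 18.4 FPKM in wild-type ones (-1.29 ± 0.07, limma adjusted p = 1.07e-07). Its close relative Kcnk13 fell by 1.28, from 5.42 ± 0.51 to 1.94 ± 0.31 FPKM (SD, n = 4). Kcnk13 is known as a channel of microglia, of which 5 of 6 markers rose in these libraries. Which cells of the bulb hold the Kcnk13 RNA, and the part of cell types in its fall, was not tested. Kcnk10 fell by 1.24 and the acid-sensitive channel gene Kcnk9 by 0.53. Kcnk3, of the same kind, fell by 0.32 with overlapping groups, and this did not pass under 11 of the 24 alternatives (-0.14 without letter B and -0.50 without letter A). Its exons overlap those of Gm9899 by 229 bases. Kcnk5, an acid- and alkali-sensitive leak channel, rose from 0.665, 0.725, 0.766 and 0.740 FPKM to 1.93, 2.05, 1.83 and 1.92 FPKM (0.99 ± 0.08, limma adjusted p = 1.42e-06). On the untransformed scale its mean was 267% of wild type. The mechano-sensitive channel gene Kcnk2 measured 13.4, 14.9, 15.004 and 14.6 FPKM against 9.25, 9.68, 8.32 and 9.49 FPKM (0.63 ± 0.06). Kcnk15 and Kcnk6 rose by 0.38 and 0.29, the latter without a call under quantile normalization or on letter means. Kcnk4 was low (0.669 ± 0.200 and 0.529 ± 0.153 FPKM, SD, n = 4) and did not pass. Kcnk1, the most abundant gene of the subfamily, was at 25.4 ± 1.1 and 25.1 ± 1.1 FPKM and did not pass (0.02 ± 0.04, limma adjusted p = 0.775), except under quantile normalization, where it was higher by 0.12.

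Of the 8 channel genes of the class that opens on calcium or sodium, 4 fell and 3 rose. The share called was 87.5%, against 65.3% of all tested genes, of which 36.5% fell and 28.8% rose. Kcnma1, the large-conductance calcium-activated channel, stood at 10.48, 9.69, 12.4 and 11.475 FPKM in the mutant libraries, against 15.7, 17.4, 15.2 and 17.3 FPKM in wild-type ones (-0.56 ± 0.07, limma adjusted p = 6.77e-05). Its neuronal beta subunit gene Kcnmb4 fell by 0.32, its low relative Kcnmb2 did not pass (-0.14), and the sodium-activated Kcnt1 and Kcnt2 by 0.31 and 0.48. The small-conductance genes, which shape the pause after a spike, split, with Kcnn1 lower by 0.47 and Kcnn3 higher by 0.38. Kcnn2 rose by 0.11, but this did not pass under 14 of the 24 alternatives, among them the letter block. Its exons overlap those of A330093E20Rik by 284 bases on the opposite strand. The intermediate-conductance gene Kcnn4, best known from blood and immune cells, rose from 2.36, 2.41, 3.03 and 2.41 FPKM to 6.26, 4.86, 5.16 and 4.73 FPKM (0.91 ± 0.10, limma adjusted p = 1.39e-05). Kcnu1, known from sperm, was low in both groups (0.563 ± 0.095 and 0.643 ± 0.054 FPKM, SD, n = 4) and did not pass. Of the KCNE single-span subunits, which slow or speed Kv channels, Kcne1l rose by 0.51 and Kcne4 by 0.49, without overlap. Kcne1l measured 9.77, 9.62, 9.73 and 10.1 FPKM against 6.08, 7.51, 6.75 and 6.60 FPKM. Kcnrg, which encodes a regulator of Kv assembly and no channel subunit, fell by 0.41 from 0.850 ± 0.018 FPKM (by 0.64 with a pseudocount of 0.1), and did not pass on letter means or without letter B or C.

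**Figure D4:**
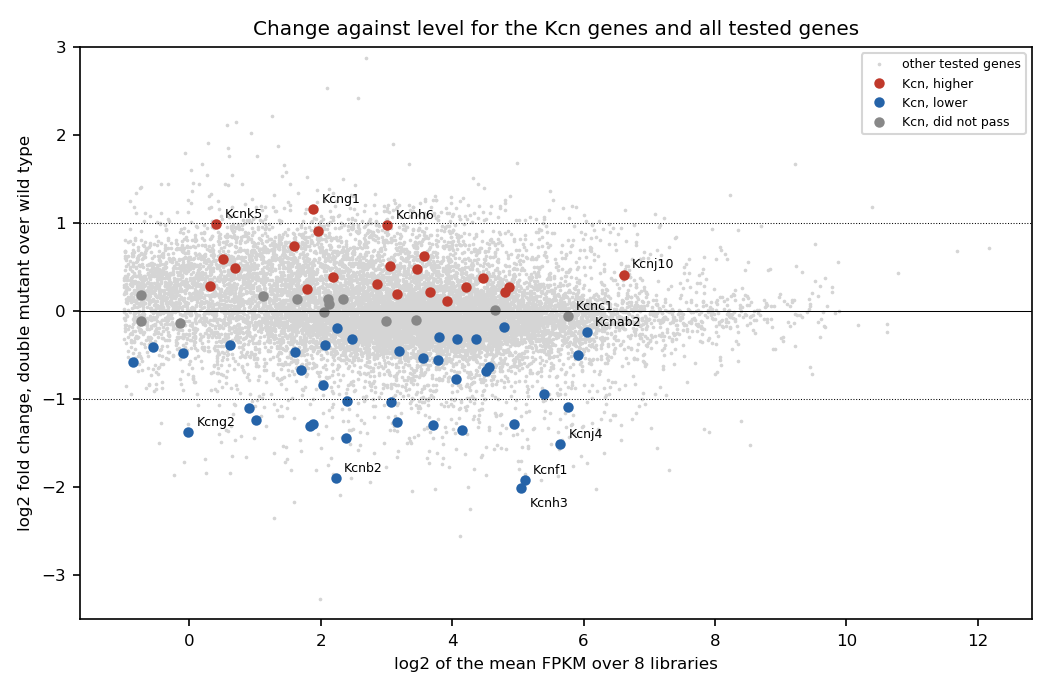
Log2 fold change against log2 of the mean FPKM for the Kcn genes (coloured by call) and all tested genes (grey; 2 genes lie outside the axis). The dotted lines mark 2-fold changes; strong falls of Kcn genes occur at low levels (Kcng2) and at high levels (Kcnf1, Kcnh3, Kcnj4), and the most abundant member, Kcnj10, lies above 0.

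The members were also counted by level, beside all tested genes of the same level. Of the 18 members with a mean of at least 20 FPKM, 12 fell (66.7%, against 48.2% of all genes) and 4 rose (22.2%, against 23.1%). Of the 25 between 5 and 20 FPKM, 13 fell (52.0%, against 42.6%) and 9 rose (36.0%, against 25.5%). Of the 32 between 0.5 and 5 FPKM, 15 fell (46.9%, against 18.8%) and 9 rose (28.1%, against 37.7%). The 16 members under the filter were Kcna7, Kcna10, Kcne2, Kcne3, Kcng3, Kcnj5, Kcnj14, Kcnj15, Kcnk7, Kcnk18, Kcnmb1, Kcnmb3, Kcnq1, Kcns1, Kcns3 and Kcnv2. Among them, the groups did not overlap for Kcnj5, Kcnj15, Kcns3 and Kcnj14. These levels are near the floor, and the share without overlap among all genes under the filter was not counted. The values are therefore given as a description only. Kcnj5 measured 0.316 to 0.571 FPKM in the double mutants and 0.0870 to 0.184 FPKM in the wild type, Kcnj15 0.258 to 0.384 and 0.0603 to 0.135 FPKM, and Kcns3 0.331 to 0.427 and 0.142 to 0.235 FPKM, all higher in the double mutants. Kcnj14 was lower, at 0.120 to 0.277 against 0.421 to 0.642 FPKM. Kcnmb3 was listed at 0 in all double mutant libraries and in 2 of the wild-type libraries.

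Ratios between genes whose products assemble, or belong to 1 branch, were taken within each library, which makes them independent of the scaling. The 12 pairs were chosen after the values were seen, and an exact permutation test (two-sided, 4 against 4 libraries) was run on each, whose smallest p is 0.0286. It passed for 8 pairs (exact permutation p = 0.0286 and Benjamini-Hochberg adjusted p = 0.0429 for each). The test treats libraries of a letter as independent, although they were closer to each other than to the rest of their group. For this reason, and because of how the pairs were chosen, a pass describes these libraries only. The log2 ratio of Kcna4 to Kcna2 was lower in the double mutants by 1.62 ± 0.03 (SE, n = 4 per group), and that of Kcna1 to Kcna2 differed by -0.76 ± 0.08. Kcnip2 was also lower against Kcnd2 (-0.44 ± 0.06), and Kcnj9 was higher against Kcnj3 (1.01 ± 0.06). Of the 12 pairs, 4 did not pass. The ratio of Kcnd3 to Kcnd2 differed by -0.04 ± 0.03 (exact permutation p = 0.1714, adjusted 0.2057) and that of Kcnj16 to Kcnj10 by 0.08 ± 0.08 (exact permutation p = 0.3429, adjusted 0.3741). The ratio of Kcnmb4 to Kcnma1 differed by 0.25 ± 0.09 (exact permutation p = 0.0571, adjusted 0.0761). For Kcnj6 to Kcnj3 the difference was 0.21 ± 0.24 (exact permutation p = 0.4286, adjusted 0.4286), and it was -0.19 without letter A.

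Neighbouring Kcn genes did not always move alike. On chromosome 1, Kcnj9 (minus strand), which fell by 0.29, and Kcnj10 (plus strand), which rose by 0.41, lie 11891 bases apart with their starts facing each other. On chromosome 6, Kcna1 fell by 0.45, while Kcna5 and Kcna6 on its sides did not pass (-0.01 and 0.14). On chromosome 3, Kcna3 and Kcna2, separated by 63075 bases, rose by 0.19 and 0.28. On chromosome 11, Kcnj16 rose by 0.48 and Kcnj2, 38195 bases away, did not pass. Kcnmb1 overlaps the Kcnip1 locus on chromosome 11 and was low in both groups, at 0.160 ± 0.061 and 0.119 ± 0.047 FPKM (SD, n = 4), while Kcnip1 fell by 1.35.

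Genes that work with Kcn subunits but have other names were counted from a list. Of 18 tested partner genes (auxiliary, scaffold and anchoring proteins) 9 fell, 3 rose and 6 did not pass, with a median of -0.36. The share called was 66.7%, close to the 65.3% of all tested genes, and 36.5% of all tested genes fell. Besides Amigo1, Dpp6 and Dpp10, these falls included Akap5 (by 0.84), the kinase anchor that binds M-channels, and Lgi1 (by 0.75), a secreted protein linked to Kv1 channels. The rises were Adam23 (0.54), Cntn2 (0.47) and Cntnap1 (0.18), which are known from axons and nodes of myelinated fibres or, for Adam23, as a receptor of Lgi1. Under upper quartile scaling 5 partner genes were higher. Of 5 tested relatives that pass sodium and potassium, 3 fell, among them Hcn3 and Hcn4 by 0.26 and 0.52, and Cnga2 rose by 0.38. Hcn2, the most abundant, was at 50.3 to 56.9 and 54.1 to 55.3 FPKM and did not pass. The share called among these relatives was 80.0%, against 65.3% of all tested genes. The sodium-potassium pump, which restores the gradient that these channels use, also split by subunit. Of 10 tested genes 3 fell and 6 rose. The most abundant gene, Atp1b1, stood at 683, 659, 722 and 708 FPKM in the mutant libraries, against 846, 849, 855 and 858 FPKM in wild-type ones, a fall of 0.30 ± 0.03 (limma adjusted p = 1.27e-05) without overlap.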

How the data were processed

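RNA of 8 bulb libraries was measured. The authors deposited an FPKM value for each gene and library. TopHat, Cufflinks 2.1.1 and GRCm38.p4 stand in the submitters' processing notes, and neither the annotation nor strand use or filtering is given in the sources used here. The authors also deposited a scaled signal under a count heading, in which 98.2% to 98.6% of values lay within 0.02 of a whole number of steps. It served for depth, for library pairs (genes with a sum of at least 20) and for an alternative fit.

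The fit used log2(FPKM + 0.5) of the 14349 genes that averaged 0.5 FPKM or more. limma 3.58.1 in R 4.3.3 (group only, variance trend) gave two-sided p-values, adjusted by Benjamini-Hochberg over all of them. A positive change means higher in the double mutants. The fit was tested on simulated data. Exact tests were run in Python 3.11.15 with numpy 2.4.6, and figures used matplotlib 3.10.9. The chi-square median for the library pairs came from scipy 1.17.1.

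The members, lists and tests were chosen with earlier results of these data known. Values were given for the 10 largest called changes in each direction (with 1 FPKM or more in the higher group), in each subfamily the highest level and the smallest p, the 4 smallest changes at 5 FPKM or more and the 10 highest levels. Some genes and ratios that these rules take are not reported here. Other members were named in their subfamily's count. In the partner, cation channel and pump lists the rule took the 2 smallest p and the highest mean, and other genes of these lists were named after their values were seen. Coordinates are from GENCODE M21 (GRCm38), counted from 1, and all 91 symbols matched. Exons of 7 members overlap another listed gene on the opposite strand. Alternatives were 3 scalings, 2 pseudocounts, 2 filters, the scaled columns, no variance trend, 3 treatments of the letter, a replicate block and leaving out each library. Same-numbered libraries did not deviate together (correlation across genes of -0.052 to 0.005). Libraries of different numbers gave -0.045 to 0.036. No pairing by number was seen, but correlations of deviations within groups cannot exclude one.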

Additional observations from a re-analysis of the deposited data

Results flagged for a closer look

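In 4 of 84 groups of 4 values examined for the 42 named members, 1 library lay far from the other 3 relative to the range of its group, by Dixon's criterion at the 95% level, and chance alone gives about 1 in 20 such groups. Kcnj11 measured 8.47 FPKM in double mutant replicate 2, against 7.27 to 7.44 in the other double mutants. Kcnmb4 measured 17.0 FPKM in wild-type replicate 1, against 19.1 to 19.4 in the others. Kcnn4 measured 3.03 FPKM in wild-type replicate 3, against 2.36 to 2.41. Kcnt1 measured 19.4 FPKM in double mutant replicate 3, against 17.7 to 17.9. Kcnmb4, Kcnn4 and Kcnt1 kept their calls when the library in question was left out, and Kcnj11 passed without double mutant replicate 2 (-0.16, limma adjusted p = 0.0156).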

How the results depend on the processing

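Over 24 alternatives the members that fell numbered 35 to 42 and those that rose 18 to 25, against 40 and 22. The 35 and 18 came from the filter at 2 FPKM, where only 62 members were tested. All 52 called members still present there kept their calls. With no filter 91 members were tested, of which 41 fell and 25 rose. With the replicate block 40 members fell and 21 rose, and of the 62 called members 61 were kept (Kcnn2 was lost). With letter means, without letter B and without letter C 56 were kept in each case. Members at least 2-fold lower numbered 13 (pseudocount of 1) to 17. Members at least 2-fold higher, 1 in the report, numbered 3 under upper quartile or trimmed mean scaling, in the scaled columns and without letter B or D, 4 with a pseudocount of 0.1, and 1 to 3 when single libraries were left out (3 without double mutant replicate 3 or wild-type replicate 3). Partner genes that were higher numbered 5 under upper quartile scaling instead of 3. Of the 42 named members, 34 kept direction and call throughout. Upper quartile scaling gave Kcnc1 a positive change of 0.0263, and quantile normalization one of 0.0401, while without letter B it passed as lower (-0.0861). Kcnk1 turned to -0.0158 without letter B and -0.0271 without letter C, and leaving out single libraries gave -0.0098 to 0.042, negative without double mutant replicate 3 or wild-type replicate 2. The ratio differences of Kcnj6 to Kcnj3 and of Kcnj16 to Kcnj10 turned to -0.19 and -0.0274 without letter A, and that of Kcna4 to Kcna2 was -1.54 with 0.5 added to each value. These ratio alternatives were chosen after the data were seen. The cause of these shifts was not tested, apart from the pseudocount, which shrinks changes of low genes by construction. Depth limits the 16 members below the filter, which were not tested.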

Other observations

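Letters A and B, both of double mutants, did not overlap for 37 of the 75 tested members (49.3%, against 52.1% of all tested genes), and letters C and D of the wild type for 31 (41.3%, against 40.9%). The widest such gap within the double mutants was that of Kcnj6, with letter A higher than letter B by 0.57 on the log2 scale.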
